A study of Mus musculus and Homo sapiens with 8 samples.

Results

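The genes of the circadian clock were examined in crypts of the small intestine from mice with an Apc Min mutation. The set comprised 10 named genes: Arntl, Clock, Per1, Per2, Per3, Cry1, Nr1d1, Nr1d2, Dbp and Tef. They were taken by gene symbol from an expression table of 13359 distinct genes. All 10 were listed and all 10 passed the filter on low values, which asked for at least 1 FPKM in at least 2 libraries. FPKM is a read number scaled to gene length and to the read total of the library. There were 2 control libraries from Apc Min mice (genotype label APCmin+) and 2 libraries from Apc Min mice whose label adds a Zmynd8 deletion marked IEC (APCmin+; Zmynd8IEC-/-), commonly short for intestinal epithelial cells. All mice were untreated C57BL/6 animals aged 2 months, every group carried the Apc allele, and each library pooled RNA of 3 mice. The driver of the deletion is not named in the labels. Neither the labels nor the design text gives the time of day at which crypts were collected.

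The clock is a feedback loop of transcription. ARNTL (also called BMAL1) and CLOCK bind E-box sequences as a pair and switch on the Per and Cry genes, whose proteins return to the nucleus and block that pair. The same pair drives Nr1d1 and Nr1d2, which encode the REV-ERB receptors that repress Arntl, and it drives Dbp and Tef, which encode PAR bZIP factors that bind D-box sequences in output genes and in Per genes. In mouse tissues Arntl and the Dbp, Nr1d1 and Per1 group peak at roughly opposite times of day. The intestinal epithelium has its own clock, which is known to follow feeding and to time absorption and cell division.

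Promoter sequences were read from RefSeq (build GRCm38.p6) to show the elements named above. They are the 250 bases before an annotated start, written from 5′ to 3′ on the gene's strand. Of the 10 genes 9 matched, with 14 start sites in all, and Per2 was the remaining one. Capitals mark 4 motifs searched on both strands, so a match can appear as the reverse complement. The first is the E-box CACGTG. The second is its variant CACGTT. The third is the D-box TTATGTAA. The last is the hexamer AGGTCA, which is part of the element bound by REV-ERB receptors. None of the 4 overlaps another in the windows shown. The 5 windows were chosen because they hold an E-box, its variant or a D-box. They come from chr11:69098699-69098948, plus strand for Per1, chr15:81802423-81802672, plus strand for Tef, chr4:151044666-151044915, minus strand for Per3, chr11:98775378-98775627, minus strand for Nr1d1 and chr10:85185055-85185304, minus strand for Cry1.
Per1: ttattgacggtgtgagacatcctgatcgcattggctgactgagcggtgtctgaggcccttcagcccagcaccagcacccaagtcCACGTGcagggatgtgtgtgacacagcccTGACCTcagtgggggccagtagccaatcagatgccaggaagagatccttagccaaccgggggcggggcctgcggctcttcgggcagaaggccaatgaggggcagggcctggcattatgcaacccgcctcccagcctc
Tef: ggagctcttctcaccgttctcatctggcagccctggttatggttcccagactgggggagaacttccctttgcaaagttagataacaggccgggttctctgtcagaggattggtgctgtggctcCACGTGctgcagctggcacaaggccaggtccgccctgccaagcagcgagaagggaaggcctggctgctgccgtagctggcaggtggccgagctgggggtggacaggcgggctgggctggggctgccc
Per3: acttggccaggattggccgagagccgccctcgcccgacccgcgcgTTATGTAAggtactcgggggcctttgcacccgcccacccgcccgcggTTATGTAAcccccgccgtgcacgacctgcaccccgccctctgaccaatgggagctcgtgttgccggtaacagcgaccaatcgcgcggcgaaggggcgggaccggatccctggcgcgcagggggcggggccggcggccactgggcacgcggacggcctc
Nr1d1: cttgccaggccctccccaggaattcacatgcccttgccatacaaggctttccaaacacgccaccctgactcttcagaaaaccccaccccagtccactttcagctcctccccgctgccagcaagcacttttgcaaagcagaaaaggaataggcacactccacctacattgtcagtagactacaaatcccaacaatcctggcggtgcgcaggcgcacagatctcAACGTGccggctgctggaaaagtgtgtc
Cry1: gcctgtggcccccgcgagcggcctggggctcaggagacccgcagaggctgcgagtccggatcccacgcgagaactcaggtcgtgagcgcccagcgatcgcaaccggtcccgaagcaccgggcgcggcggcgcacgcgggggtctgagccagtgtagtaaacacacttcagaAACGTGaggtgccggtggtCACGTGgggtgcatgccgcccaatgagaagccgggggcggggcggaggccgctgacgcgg
The Per1 window holds an E-box whose first base lies at -166 from the start, and a hexamer at -137. It lies within the span given below for the gene, and the window of the other Per1 start site holds none of the 4 motifs. The Tef window holds an E-box at -127, and the window of its other start site has one at -138. Per3 has a pair of D-boxes, at -205 and -158. Nr1d1 has the E-box variant at -28, and Cry1 has an E-box at -60 beside the variant at -79. Among 32851 such windows of 27025 genes, 6.02% hold the E-box, 3.85% the variant, 0.819% the D-box and 14.0% the hexamer, and 6 windows (0.0183%) hold at least 2 D-boxes. The windows of Arntl and Dbp hold none of the 4 motifs, which says only that these letters are not in those windows. A match is a description and was not tested as a binding site.

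Dbp, the PAR bZIP output gene, was the 1 clock gene that rose past the test in the libraries labelled knockout. Per1, Per2, Per3, Nr1d1, Nr1d2 and Tef also had higher values in both of those libraries than in either control, without passing the adjusted threshold. Arntl and Clock, the activators, did not share this difference, and Cry1 overlapped between the groups. By limma, with Benjamini-Hochberg adjustment over 12948 genes, 1 of the 10 genes was called higher at an adjusted p under 0.05 (0.595% of all genes tested) and 0 were called lower (0.131% of all genes). At an unadjusted p under 0.05, 7 of the 10 were higher, against 7.49% of all genes, and 0 were lower, against 19.1%. In the same 7 genes both libraries labelled knockout lay above both controls, which 14.9% of all genes tested did. The 10 genes were chosen with earlier results of these data known, so these counts are a description and not independent support. The opposite order, met by 48.5% of all genes, was seen in Arntl. The median log2 fold change of the 10 genes was 0.44, and that of all genes tested was -0.15.

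**Figure D1:**
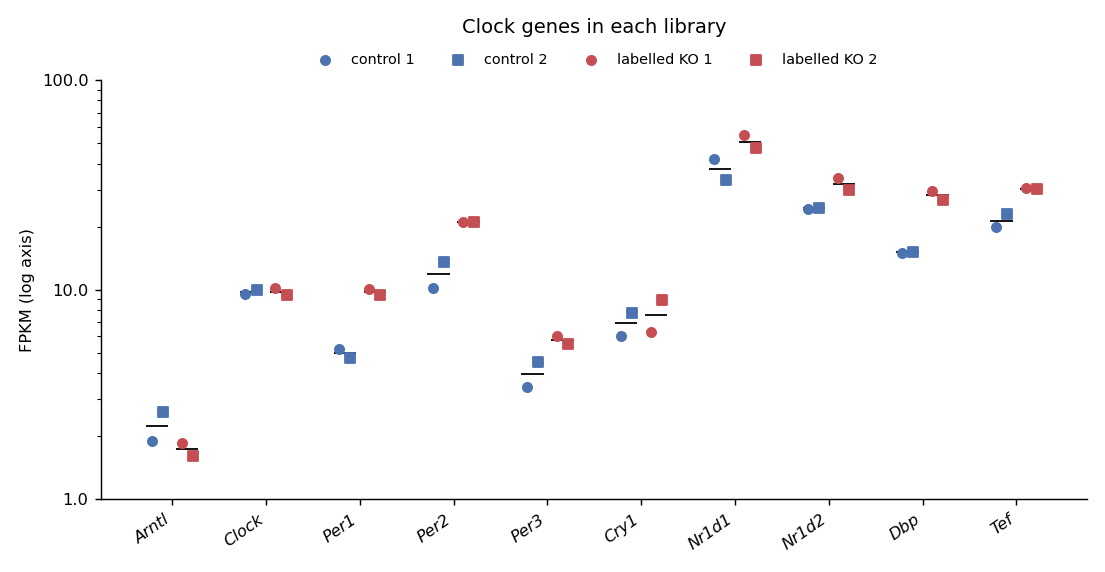
FPKM of the 10 clock genes (log axis) in control libraries 1 and 2 (blue) and in the libraries labelled knockout 1 and 2 (red, labelled KO); black lines are group means. Both red points of Per1, Per2, Per3, Nr1d1, Nr1d2, Dbp and Tef sit above both blue points, and those of Clock and Cry1 do not.

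The labels could not be checked on the targeted gene. Zmynd8 measured 6.94 and 4.73 FPKM in controls 1 and 2, against 7.30 and 7.65 FPKM in knockout-labelled libraries 1 and 2, so every direction here rests on the labels. Library totals, estimated from the FPKM values, ran from 44718091 to 48778712 reads. Epithelial identity was checked on Epcam, which was abundant at 976 to 1315 FPKM, with both libraries labelled knockout below both controls. The crypt markers Olfm4 and Mki67 were detected in all libraries and had lower values in the same way. Enterocyte markers of the villus had higher values in the libraries labelled knockout, in all 4 pairings for 16 of 17 genes (14.9% of all genes). Their summed levels were 15567 and 17856 FPKM in the controls and 25089.5 and 29174 FPKM in the other group. Proliferation markers were lower in all 4 pairings for 12 of 12 genes (48.5% of all genes). Their sums were 286 and 258 FPKM against 193 and 192 FPKM. Values were also lower in all 4 pairings for 7 of 8 crypt stem cell markers and 7 of 8 Paneth cell markers. The same held for 5 of 7 goblet cell markers and 6 of 7 general epithelial markers, against 48.5% of all genes. Limma called 2 Paneth cell markers lower (0.131% of all genes). Vil1 is in both the enterocyte and the general epithelial list. Paneth cell markers summed to 7561 and 9774 FPKM against 4548 and 6476 FPKM, and crypt stem cell markers to 239.7 and 234 FPKM against 148 and 154 FPKM. Most of the latter sum was Olfm4, at 133 and 166 FPKM against 98.3 and 109 FPKM. The mean log2(FPKM + 1) of the crypt stem cell markers was 4.17 and 3.45 against 3.10 and 3.05, so the controls differed. Lgr5 measured 14.8 and 3.48 FPKM in controls 1 and 2, against 2.74 and 3.19 FPKM, with most of its difference in control 1. Immune markers summed to 1190 and 1675 FPKM against 1482 and 1163 FPKM, and stromal markers to 342 and 454 FPKM against 349 and 327 FPKM. None of these markers was at 0 in any library. Whether the cell makeup of the pools had a part in the clock values was not tested, and in bulk RNA fewer cells of a type and less RNA per cell cannot be told apart.

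Arntl, the partner of CLOCK and the gene most directly repressed by REV-ERB, was the lowest of the 10 genes in every library. The gene (plus strand of chromosome 7, bases 113178470 to 113314126) measured 1.90 and 2.60 FPKM in controls 1 and 2, against 1.85 and 1.61 FPKM in knockout-labelled libraries 1 and 2. The groups did not overlap, but control 1 and knockout-labelled library 1 differed by a log2 ratio of -0.04. That is within the counting error of 0.09 that their 486 and 493 recovered reads allow. The log2 fold change on the log2(FPKM + 1) scale was -0.24 (95% interval -0.67 to 0.18, SE 0.17, adjusted p = 0.381 by limma). The larger gap was between the control pools, at a log2 ratio of 0.45 of control 2 over control 1.

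Clock, which encodes the histone acetyltransferase partner of ARNTL, had nearly equal values in all libraries. The gene (minus strand of chromosome 5, bases 76209868 to 76305000) measured 9.56 and 9.93 FPKM in controls 1 and 2, against 10.2 and 9.41 FPKM in knockout-labelled libraries 1 and 2. The values of the groups interleave. Clock had a log2 fold change of 0.00 (SE 0.10, 95% interval -0.25 to 0.26), so the interval excludes a change of the size seen for Dbp.

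Among the repressors, Per1, which is induced by feeding signals and glucocorticoids in many tissues, had the largest ratio between group means, 1.96-fold. Per1 (plus strand of chromosome 11, bases 69095138 to 69109965) measured 5.23 and 4.72 FPKM in controls 1 and 2, against 10.1 and 9.40 FPKM in knockout-labelled libraries 1 and 2. The controls were close together, the other pair likewise, and the gap between the pairs was wider than either spread. Its log2 fold change was 0.85 (95% interval 0.56 to 1.13, SE 0.11, adjusted p = 0.0573 by limma), just outside the threshold. The call changed with the scaling: after median-ratio scaling Per1 passed (adjusted p = 0.0437), and after quantile normalization as well (0.0427), and its adjusted p ran up to 0.419 without replicate 2 of the libraries labelled knockout.

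Per2, whose protein is the scaffold of the PER and CRY repressor complex, had its highest values in the same libraries. Per2 (minus strand of chromosome 1, bases 91415977 to 91459402) measured 10.2 and 13.6 FPKM in controls 1 and 2, against 21.0 and 21.1 FPKM in knockout-labelled libraries 1 and 2. The control pools differed from each other by far more than the other pair did. Per2 had a log2 fold change of 0.79 (SE 0.15, limma adjusted p = 0.0896). Gm35591 overlaps Per2 by 7633 bases on the opposite strand. It was at 0.862 and 0.503 FPKM in controls 1 and 2, against 1.198 and 1.089 FPKM in knockout-labelled libraries 1 and 2, the same direction as Per2. Without strand its reads cannot be told from those of Per2.

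Per3 is the family member least needed for rhythm in mice, and its promoter carries the D-box pair printed above. Per3 (minus strand of chromosome 4, bases 150997018 to 151044723) measured 3.43 and 4.53 FPKM in controls 1 and 2, against 6.00 and 5.52 FPKM in knockout-labelled libraries 1 and 2. Every knockout-labelled value was above every control, and the nearest pair, control 2 and knockout-labelled library 2, differed by a log2 ratio of 0.28. Per3 had a log2 fold change of 0.45 (SE 0.15, limma adjusted p = 0.159).

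Cry1, the strongest repressor of the ARNTL and CLOCK pair, differed more within groups than between them. Cry1 (minus strand of chromosome 10, bases 85131700 to 85185054) measured 6.05 and 7.79 FPKM in controls 1 and 2, against 6.26 and 8.97 FPKM in knockout-labelled libraries 1 and 2. Cry1 gave a log2 fold change of 0.11 (95% interval -0.42 to 0.64, SE 0.20). Its window holds an E-box, as those of Per1 and Tef do.

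The REV-ERB gene Nr1d1 was the most abundant of the 10 in each library. Nr1d1 (minus strand of chromosome 11, bases 98767932 to 98775377) measured 41.9 and 33.2 FPKM in controls 1 and 2, against 54.7 and 47.2 FPKM in knockout-labelled libraries 1 and 2. The groups did not overlap, though each was spread. The log2 fold change was 0.43 (SE 0.15, limma adjusted p = 0.164). Nr1d1 shares 1075 bases with Thra, a thyroid hormone receptor gene on the opposite strand, which stood at 19.5 and 17.6 FPKM against 22.9 and 22.5 FPKM. With no statement of strand in the sources, reads of the shared part cannot be assigned.

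Nr1d2, the second REV-ERB gene (minus strand of chromosome 14, bases 18204056 to 18239106), had a smaller difference. It measured 24.2 and 24.6 FPKM in controls 1 and 2, against 34.0 and 29.8 FPKM in knockout-labelled libraries 1 and 2. The controls nearly coincided and both other values were higher. Nr1d2 had a log2 fold change of 0.37 (SE 0.10, limma adjusted p = 0.130).

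Dbp (plus strand of chromosome 7, bases 45705093 to 45710203) measured 15.0 and 15.1 FPKM in controls 1 and 2, against 29.6 and 26.7 FPKM in knockout-labelled libraries 1 and 2, or 15.1 ± 0.0653 against 28.2 ± 2.05 FPKM (SD, n = 2 each). The reads recovered from these values were 1692 and 1857 for controls 1 and 2, against 3476 and 3233 for knockout-labelled libraries 1 and 2. Its log2 fold change was 0.86 (95% interval 0.61 to 1.11, SE 0.10, adjusted p = 0.0459 by limma), and both libraries labelled knockout were above both controls. This p lay near the limit: with every listed gene tested it was 0.0576, after quantile normalization 0.0506, without control replicate 1 it was 0.0676, and without replicate 1 or 2 of the libraries labelled knockout it was 0.224 and 0.345. Dbp shares 741 bases with Sphk2, a sphingosine kinase gene on the opposite strand, which measured 16.2 and 15.9 FPKM in controls 1 and 2, against 16.6 and 20.04 FPKM in knockout-labelled libraries 1 and 2, so the value of Dbp is uncertain to that extent. A first simulated check of the test gave more false calls than the threshold allows, and a call this near to the threshold is to be read with that in mind. In the authors' deposited table Dbp had the smallest p-value of the 10 genes, 0.0381, and all 10 had a q-value of 1. Of all genes in the authors' deposited table, 1.26% had a q-value under 0.05 and higher values in the libraries labelled knockout, and 0.876% had one with lower values.

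Tef, the other PAR bZIP gene (plus strand of chromosome 15, bases 81802673 to 81826863), measured 19.9 and 22.9 FPKM in controls 1 and 2, against 30.4 and 30.1 FPKM in knockout-labelled libraries 1 and 2. The latter pair agreed closely and lay above both controls. Tef had a log2 fold change of 0.49 (SE 0.11, limma adjusted p = 0.0980).

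**Figure D2:**
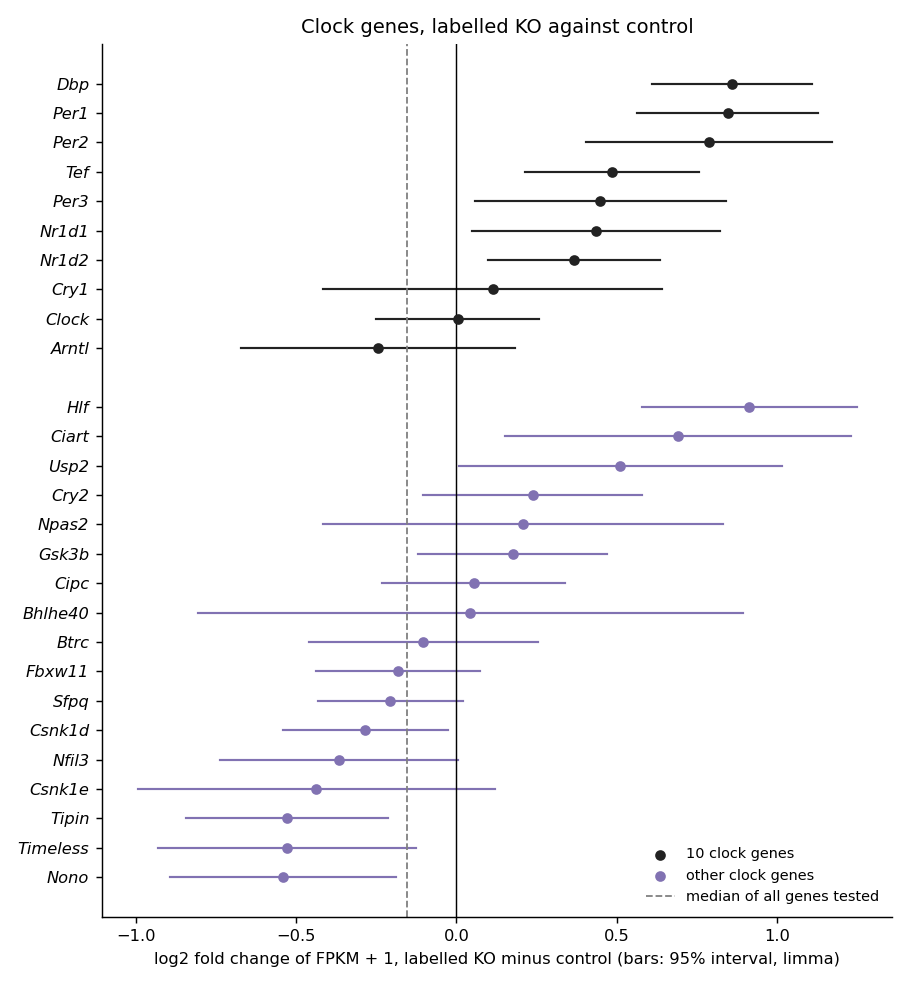
Log2 fold change of FPKM + 1, libraries labelled knockout minus controls, with limma 95% intervals, for the 10 clock genes (black) and 17 other clock genes (purple); the dashed line is the median of all genes tested, -0.15. Dbp, Per1 and Per2 lie at 0.86, 0.85 and 0.79, and Clock and Arntl at 0.00 and -0.24.

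The order of the 10 genes by FPKM was almost the same in all libraries. Nr1d1 came first, then Nr1d2, Tef, Dbp, Per2 and Clock, and Per3 and Arntl came last. The exceptions were Per1, which was below Cry1 in both controls and above it in both libraries labelled knockout, and Tef, which was above Nr1d2 in knockout-labelled library 2. In that library Tef and Nr1d2 were 30.1 and 29.8 FPKM.

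The arms of the clock were set against each other within each library. The mean log2(FPKM + 1) of Per1, Per2, Per3, Nr1d1, Nr1d2, Dbp and Tef came to 3.82 and 3.89 for controls 1 and 2, against 4.51 and 4.41 for knockout-labelled libraries 1 and 2. That of Arntl and Clock came to 2.47 and 2.65 for controls 1 and 2, against 2.50 and 2.38 for knockout-labelled libraries 1 and 2. The difference between the arms was therefore 1.35 and 1.24 for controls 1 and 2, against 2.02 and 2.02 for knockout-labelled libraries 1 and 2. It was 0.72 larger in the latter. Cry1 was left out of the driven arm because its peak lies between those of the arms. With Cry1 counted in, an alternative chosen after seeing the data, the difference between the arms was 0.66 larger. The 7 genes are the same ones that were higher in all pairings, so the score describes the libraries and adds no support. No test is given. With the time of collection not given, a difference of hour between the groups cannot be told apart from one of genotype.

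Levels were also set against Arntl as FPKM ratios within each library. The ratio of Dbp to Arntl came to 7.902 and 5.81 for controls 1 and 2, against 16.0 and 16.6 for knockout-labelled libraries 1 and 2. For Per2 it was 5.37 and 5.24 against 11.4 and 13.1, and for Nr1d1 it was 22.1 and 12.8 against 29.5 and 29.3. Because Arntl was lower and the 7 genes higher in all pairings, their ratios had to be higher in the libraries labelled knockout, and only the size of the ratios is added here. Cry1 to Arntl was 3.18 and 2.99 against 3.38 and 5.56, with most of the difference in 1 library.

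**Figure D3:**
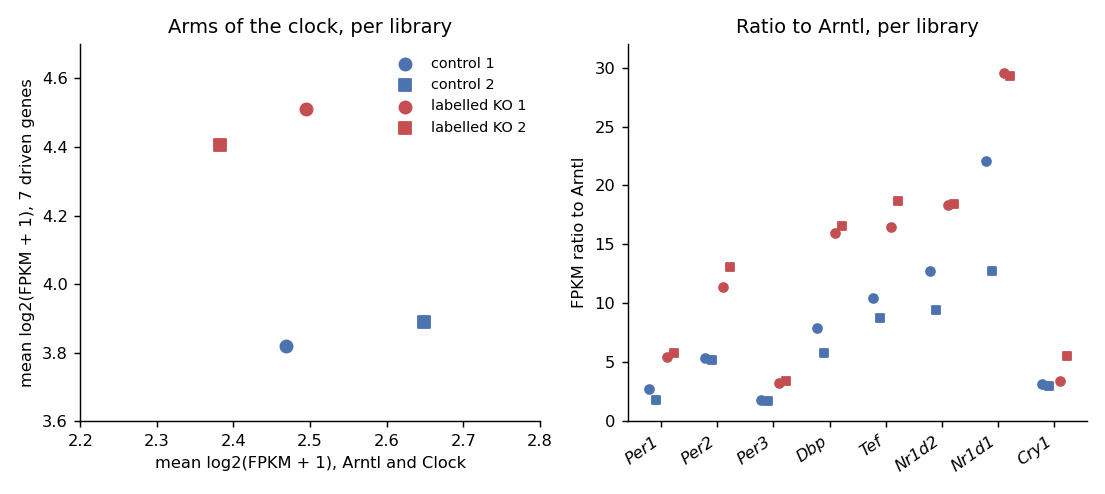
Left, mean log2(FPKM + 1) of the 7 driven genes (Per1, Per2, Per3, Nr1d1, Nr1d2, Dbp, Tef) against that of Arntl and Clock, 1 point per library. Right, FPKM ratio of each gene to Arntl per library. The driven genes average 3.82 and 3.89 (controls, blue), against 4.51 and 4.41 (labelled knockout, red), and the activators overlap between groups.

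Of 25 other clock genes listed, 20 were in the table and 19 were tested. By limma 0 of the 19 were called in either direction, with 4 higher (7.49% of all genes) and 4 lower (19.1%) at an unadjusted p under 0.05, and voom on whole reads called 1, Hlf. Their median log2 fold change was 0.04. Of 8 partners and paralogs of the 10 genes, 7 had positive values (3669 of all 12948 genes tested) and 4 were higher in all pairings (14.9% of all genes). Of 11 kinases, ubiquitin ligases and binding partners, 8 had negative values (9279 of all 12948 genes tested). In all pairings 8 were lower, as 48.5% of all genes were.

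Hlf, the third PAR bZIP factor beside Dbp and Tef, had the largest value of the 19. It measured 1.30 and 1.21 FPKM in controls 1 and 2, against 3.16 and 3.34 FPKM in knockout-labelled libraries 1 and 2 (log2 fold change 0.91, SE 0.13, limma adjusted p = 0.0666). In all 3 PAR bZIP genes both libraries labelled knockout lay above both controls, as in 14.9% of all genes. Of the 3 only Dbp was called. Ciart, which encodes a repressor of the ARNTL and CLOCK pair, stood at 1.85 and 1.99 FPKM against 4.67 and 2.92 FPKM (0.69, adjusted p = 0.139). Its window before the start holds 3 E-boxes, at -116, -58 and -44, which 20 of all windows (0.0609%) do. Usp2, a deubiquitinase under clock control, stood at 7.31 and 11.04 FPKM against 13.2 and 13.3 FPKM (0.51, adjusted p = 0.185).

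Nfil3 encodes the repressor that competes with PAR bZIP factors for D-boxes, and its values went the other way. It measured 1.90 and 1.53 FPKM in controls 1 and 2, against 1.07 and 1.14 FPKM in knockout-labelled libraries 1 and 2 (log2 fold change -0.37, SE 0.14, adjusted p = 0.191). Npas2, the paralog of Clock, stood at 3.53 and 5.54 FPKM against 4.47 and 6.21 FPKM, and the groups overlapped. Cry2, the paralog of Cry1, stood at 6.78 and 7.19 FPKM against 7.55 and 9.35 FPKM (0.24, adjusted p = 0.2999). Bhlhe40, an E-box-binding repressor, ran from 26.3 to 47.8 FPKM within the controls alone. Arntl2, the paralog of Arntl, reached 2.28 FPKM in control 1 and 0.288 to 0.536 FPKM elsewhere, and was not tested.

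Among the genes with negative values, Timeless and Tipin encode partners that stabilise replication forks, and Timeless also has a disputed part in the mammalian clock. Timeless measured 2.16 and 1.61 FPKM in controls 1 and 2, against 0.990 and 0.996 FPKM in knockout-labelled libraries 1 and 2 (log2 fold change -0.53, adjusted p = 0.135). Tipin gave -0.53 (adjusted p = 0.105), and the proliferation markers given above were lower in the same libraries. Nono, an RNA-binding partner of PER proteins, stood at 89.3 and 72.4 FPKM against 57.4 and 52.7 FPKM (-0.54, adjusted p = 0.117). The kinases that mark PER proteins for decay, Csnk1d and Csnk1e, gave -0.28 and -0.44. The ligase genes Fbxw11 and Btrc gave -0.18 and -0.10, Gsk3b 0.18, Sfpq -0.21 and Cipc 0.05.

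Rhythmic output genes of many tissues were read from a list of 15, of which 14 were tested. Limma called 2 of the 14 higher (0.595% of all genes) and 0 lower. In all pairings 8 were higher (14.9% of all genes) and 1 lower (48.5%), around a median log2 fold change of 0.37. Hlf and Usp2 are in this list and among the other clock genes above. The called genes were Tsc22d3, a leucine zipper gene induced by glucocorticoids, and Herpud1, a gene of endoplasmic reticulum protein degradation. Tsc22d3 rose from 16.2 and 15.5 FPKM to 40.1 and 42.8 FPKM (1.33, SE 0.09, limma adjusted p = 0.0373). Herpud1 rose from 52.9 and 50.1 FPKM to 104 and 106 FPKM (1.01, SE 0.10, limma adjusted p = 0.0417).

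Other output genes had smaller differences. Wee1, the mitotic kinase gene with E-box control, measured 5.58 and 6.50 FPKM in controls 1 and 2, against 7.81 and 10.0 FPKM in knockout-labelled libraries 1 and 2 (0.49, adjusted p = 0.144). Noct, which encodes the rhythmic phosphatase nocturnin, stood at 31.1 and 40.7 FPKM against 51.5 and 46.9 FPKM (0.45, adjusted p = 0.1599). Por, the electron donor of cytochromes P450, stood at 61.7 and 45.0005 FPKM against 80.6 and 102 FPKM (0.77, adjusted p = 0.122). Nampt, a NAD synthesis gene and a known target of the ARNTL and CLOCK pair, was at 26.7 and 28.7 FPKM against 27.6 and 27.7 FPKM, with a log2 fold change of 0.00 (95% interval -0.24 to 0.23). Klf9 gave 0.29, Pnkd 0.10, Tspan4 0.01, Dtx4 -0.02, Lonrf3 -0.07 and Klf10 -0.37.

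**Figure D4:**
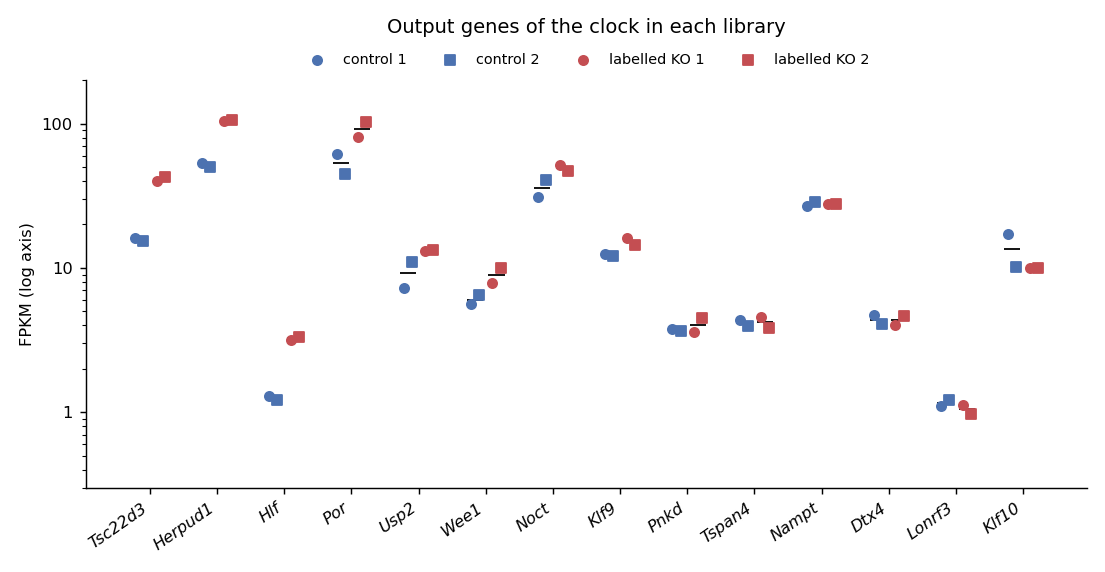
FPKM (log axis) of the 14 tested output genes, ordered by log2 fold change, in control libraries (blue) and libraries labelled knockout (red, labelled KO); black lines are group means. Both red points lie above both blue points for 8 genes and below them for Klf10, and the points of the other genes overlap.

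Since Per1 responds to glucocorticoids, the values of other glucocorticoid-induced genes are given beside it. Of 13 genes listed, Per1 among them, 12 were tested and 10 were positive (3669 of all 12948 genes tested). Their median log2 fold change was 0.84. In all pairings 9 were higher (14.9% of all genes), and limma called 1 (0.595% of all genes), Tsc22d3. Tsc22d3 and Klf9 are also in the output list. The 2 negative genes, named after their values were seen, were Dusp1 (-0.05, groups overlapping) and Hsd11b2 (-1.04, lower in all pairings, as 48.5% of all genes were). The kinase gene Sgk1 measured 52.1 and 56.3 FPKM in controls 1 and 2, against 95.7 and 99.7 FPKM in knockout-labelled libraries 1 and 2 (0.84, adjusted p = 0.0512). The transcription factor gene Zbtb16 stood at 0.428 and 0.550 FPKM against 1.77 and 2.26 FPKM (1.01, adjusted p = 0.0705). The part of these signals in the Per1 value was not tested.

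Absorption genes known to be rhythmic in the small intestine had positive values throughout. All 10 listed genes had positive log2 fold changes (3669 of all 12948 genes tested did), around a median of 1.11. In all pairings 8 were higher (14.9% of all genes), and limma called 2 higher (0.595% of all genes) and 0 lower. The called genes were Slc2a2, the basolateral glucose and fructose transporter (2.29, adjusted p = 0.0412), and Abcc2, an apical efflux pump (1.19, adjusted p = 0.0412). Slc5a1, the sodium-coupled glucose transporter, measured 538 and 591 FPKM in controls 1 and 2, against 1160 and 1332 FPKM in knockout-labelled libraries 1 and 2 (1.14, adjusted p = 0.0540), and Slc2a5, the fructose transporter, gave 1.21. These genes also mark villus enterocytes, whose markers were higher in the same libraries. Slc5a1, Slc2a2 and Apoa4 are in both lists, so the lists are not independent. The part of cell makeup in these values was not tested.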

How the data were processed

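RNA-seq libraries of crypt RNA were analysed from the authors' deposited gene table, and 4 ChIP-seq libraries of HCT116 cells were not analysed here. The table gives 1 value per gene and library, with no unit in its header. The deposited values were read as FPKM. Gene lengths and read totals were not taken from a source but fitted to the values, as those that return whole reads. All read numbers, totals and counting errors given here rest on that fit. Beside them the authors deposited their log2 fold changes, with p-values and q-values. The test behind these, the counting tool, the annotation and the use of strand are not named in the sources used here. The submitters' processing notes name HISAT2 and the build mm10, with no role. Of 13527 entries 168 were exact repeats and were used once. Every listed gene reached 1 FPKM in the mean of at least 1 group. No per-sample column was left unused (0). Whole reads were recovered for 13359 of 13359 genes within 0.002 reads, with the length of each gene searched for that outcome.

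Log2(FPKM + 1) was compared with limma 3.58.1 in R 4.3.3 (trend and robust eBayes, genotype as the only term) over 12948 genes, adjusted by Benjamini-Hochberg at 0.05, with 2 residual and a median of 3.02 prior degrees of freedom. Fold changes on this scale understate the change of low genes. The labels do not say whether pools differ by litter or day, and the p-values cover the spread among these pools, which may be technical. With 2 libraries a group, an exact permutation test cannot go below p = 0.333. The recovery was tested on simulated data, as was the test. A first simulation, with variances drawn from limma's posterior estimates, gave more false calls than the 0.05 threshold allows. The simulation kept, chosen after that outcome was seen, draws variances from limma's fitted prior and so assumes its variance model. It does not show that the false call rate holds outside that model. Alternatives were other pseudocounts, filters, scalings, variance models, voom, a replicate block and leaving out each library. The 10 genes and the lists were chosen with earlier results of these data known. Named genes were the 10, all tested genes of the other clock and output lists, Zmynd8, up to 4 of smallest p from other lists, defining markers, and genes overlapping the 10. The values of 2 genes of the other clock list are not reported here.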

Additional observations from a re-analysis of the deposited data

How the results depend on the processing

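All 10 clock genes kept their direction under the 9 alternatives that keep every library, save that the filter at a mean of 5 FPKM left Arntl and Per3 untested. The number called higher, 1 as reported, was 0 with a pseudocount of 5, without a filter, with the filter at 5 FPKM and without trend and robust moderation, and 2 with median-ratio scaling and with voom (Per1 and Dbp). With quantile normalization it was 1, but the gene was Per1. It ran from 0 to 3 with a library left out; the highest, without control replicate 2, called Per1, Per2 and Dbp, and in each of these fits the lone library is assumed to vary like the other group. No gene of the 10 was called lower under any of the 13 other settings of the fit. The adjusted p of Dbp ran from 0.0395 to 0.345. The median log2 fold change, 0.44 as reported, was 0.36 with a pseudocount of 5, 0.60 with median-ratio scaling and 0.54 with quantile normalization, and ran from 0.37 to 0.50 with a library left out. Median-ratio scaling moved the median of all genes from -0.15 to -0.01. The difference between the arms, 0.72 as reported, was 0.82 with a pseudocount of 0.1, 0.53 with a pseudocount of 5, 0.63 with the filter at 5 FPKM, 0.83 with voom and 0.66 with Cry1 counted in (chosen after seeing the data), and ran from 0.67 to 0.78 with a library left out. Of the other clock genes voom called 1, Hlf, and the fits with a library left out called from 0 to 1, Usp2 without control replicate 2. With a library left out the log2 fold change of Clock ran from -0.0456 to 0.0541 and that of Cry1 from -0.12 to 0.34, and both changed sign. Calls over all genes were 77 higher and 17 lower as reported, 1 and 0 without a filter, 2 and 0 with the filter at 5 FPKM, 11 and 0 without moderation by trend, 123 and 27 with voom, 230 and 386 without control replicate 2, and 0 and 0 without either library labelled knockout. The causes were not tested.

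With the replicate number as a block, 0 of the 10 clock genes were called higher (adjusted p of Dbp 0.154 and of Per1 0.155) and 0 of all genes. The labels do not say that a number marks a shared litter or day, and the differences between replicates 2 and 1 of the groups correlated at 0.045 across genes, which are not independent replicates. The block leaves 1 residual degree of freedom, so its lost calls are not read as weaker effects.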

Other observations

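Within each group the library with the lower Nr1d1 value had the higher Cry1 and Npas2 values. In both groups that library was replicate 2, so the order also follows the replicate number. In the controls Nr1d1 was 41.9 and 33.2 FPKM where Cry1 was 6.05 and 7.79 FPKM and Npas2 3.53 and 5.54 FPKM. In the libraries labelled knockout Nr1d1 was 54.7 and 47.2 FPKM where Cry1 was 6.26 and 8.97 FPKM and Npas2 4.47 and 6.21 FPKM. Arntl did not follow this order in both groups, being higher with the lower Nr1d1 in the controls and lower with it in the others. With 2 libraries a group this is a description of 4 pools, chosen after the values were seen.

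The listed genes of other acute responses had mixed signs, as did all 12948 genes tested (3669 positive and 9279 negative). Their splits of signs are therefore not read as a result about these lists. The 11 immediate early genes tested split into 4 with positive and 7 with negative values (median log2 fold change -0.01), and limma called 0 (at an unadjusted p under 0.05, 1 higher and 1 lower, against 7.49% and 19.1% of all genes). The 10 heat and cold response genes split into 4 and 6 (median -0.14), and limma called 0 (at an unadjusted p under 0.05, 0 higher and 3 lower, against the same shares). Because that list pools genes of heat and of cold, its split of signs says nothing about either response. In all pairings 0 of these 10 genes were higher (14.9% of all genes) and 4 lower (48.5%), the cold-induced genes Rbm3 and Cirbp among them. Rbm3 measured 39.8 and 43.9 FPKM in controls 1 and 2, against 32.6 and 28.6 FPKM in knockout-labelled libraries 1 and 2. Cirbp gave a log2 fold change of -0.19.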
